A study of Caenorhabditis elegans with 8 samples.

Results

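The cyp-35 family of Caenorhabditis elegans comprises 10 protein-coding cytochrome P450 genes in the annotation of the WBcel235 build, chosen by their symbols (cyp-35A, cyp-35B, cyp-35C or cyp-35D followed by a number) from 46244 gene identifiers in the deposited tables. All 10 were found. They are 5 cyp-35A genes, 3 cyp-35B genes, cyp-35C1 and cyp-35D1, out of 74 genes with a P450 symbol. Their RNA was measured in whole worms called col-121 in the labels, after a cuticle collagen gene, with no allele given. Late L4 larvae were picked and exposed over 24 hours either to DEET, an insect repellent, dissolved in the solvent DMSO at 0.1 M, or to 0.1% DMSO alone. Whether 0.1 M refers to the stock or to the final medium is not stated. Both groups shared the col-121 background and the solvent, and no library came from worms without DMSO. A DMSO percentage is given for the DMSO samples only, so whether the amount of solvent was matched is not known. There were 4 DEET and 4 DMSO samples of 1000 pooled worms, described in the labels as independent repeats. Numbers from 1 to 4, which the labels call pair and batch, join each DEET sample to 1 DMSO sample.

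Cytochrome P450 enzymes bind haem and insert oxygen into small hydrophobic molecules, using electrons passed on by a reductase. In C. elegans the cyp-35 genes are known for induction by foreign compounds such as polychlorinated biphenyls, atrazine, rifampicin and benzimidazole drugs. Reporter genes place much of their expression in the intestine, and loss of cyp-35A members is known to lower fat stores. cyp-35D1 is needed to hydroxylate the drug thiabendazole, and cyp-35B1, also named dod-13, is a gene regulated by the insulin pathway through the transcription factor DAF-16.

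The 8 libraries held 44437681 to 50295321 counts. Differences between pairs exceeded those between treatments. Pair 4 stood furthest apart, at -61.1 and -67.6 on the leading principal component of log2 CPM (68.2% of the variance) against -2.7 to 45.5 for the other 6 libraries. RNA of col-121 itself was detected in every library, at 21 to 69 counts with DMSO and 32 to 63 counts with DEET. Markers of intestine (12 of 12 genes), body wall muscle (8 of 8), hypodermis (6 of 6), neurons (7 of 7) and germline (8 of 8) all passed the filter on low counts, as did the sperm markers (7 identifiers for 6 symbols). None of these markers was at 0 in all libraries.

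All 10 genes lie on chromosome V. cyp-35A5 (3936326 to 3938597), cyp-35B1 (3939032 to 3941237), cyp-35B2 (3942160 to 3944523) and cyp-35B3 (3945353 to 3947044) follow each other on the plus strand, with 434, 922 and 829 bases between them. cyp-35A3 (4022609 to 4024482) and cyp-35A4 (4031619 to 4033446) lie 75.6 kilobases further on, also on the plus strand, with K09D9.1 between them. cyp-35A1 (7359929 to 7361773) and cyp-35A2 (7362319 to 7364182) are neighbours on the minus strand, 545 bases apart. cyp-35C1 (13896663 to 13898487, minus strand) and cyp-35D1 (16069238 to 16071318, plus strand) stand alone. The next gene beside cyp-35D1, 6 bases away, is nhr-176, the nuclear hormone receptor known in C. elegans to be needed for induction of cyp-35D1 by thiabendazole. The annotation shows no gene overlapping a member other than ncRNAs opposite cyp-35B1 and cyp-35B3, with 0 counts in every library. The members are close paralogs, so counts of the low ones may include reads of their relatives.

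Transcript of the family was dominated by a pair of members. In DMSO, cyp-35A2 stood at 15.7 ± 1.64 TPM and cyp-35C1 at 12.1 ± 4.29 TPM (SD, n = 4), TPM being abundance scaled for transcript length and library total. Together they made 86.7% ± 1.24 of the summed TPM of the 10 genes in DMSO and 86.3% ± 2.21 in DEET (SD, n = 4). Their levels in DMSO overlapped, with cyp-35A2 above cyp-35C1 in 3 of 4 libraries. Next in DMSO came cyp-35B1 at 2.48 ± 0.822 TPM, below every library of cyp-35C1, and then cyp-35A5 at 0.699 ± 0.194 TPM, below every library of cyp-35B1. cyp-35A5, cyp-35B2 (0.481 ± 0.381 TPM) and cyp-35D1 (0.382 ± 0.112 TPM; SD, n = 4) had overlapping ranges. cyp-35A3, cyp-35A4, cyp-35A1 and cyp-35B3 had lower means, of 0.105 TPM down to 0.00872 TPM, and the ranges of neighbours in that order overlapped. In the DMSO library of pair 2, cyp-35B2 (0.0764 TPM) was below cyp-35A3 (0.19 TPM) and cyp-35A4 (0.128 TPM). In whole worms, fewer cells of a tissue and less RNA per cell cannot be told apart.

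**Figure D1:**
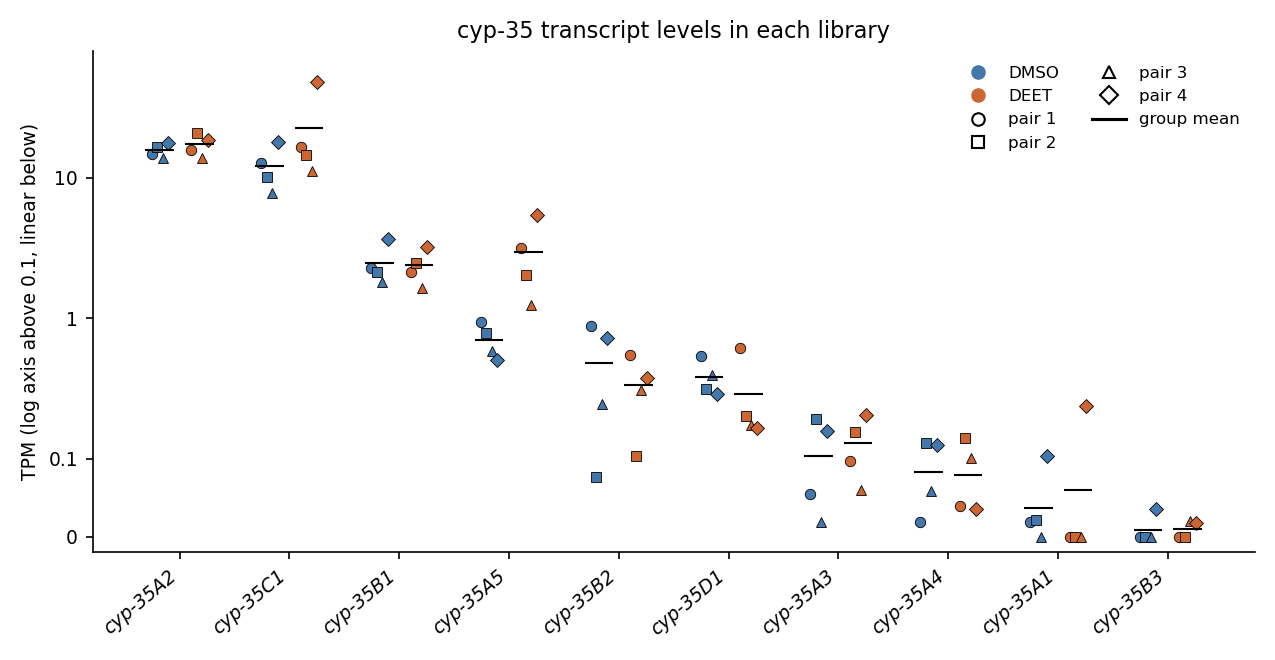
TPM of each cyp-35 gene in each library, on an axis that is logarithmic above 0.1 TPM and linear below, with genes ordered by their mean in DMSO. Points are libraries (marker shape gives the pair) and horizontal bars are group means of 4 libraries. The 4 DEET points of cyp-35A5, from 1.23 to 5.38 TPM, lie above its 4 DMSO points, from 0.506 to 0.935 TPM.

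No cyp-35 gene passed the threshold between DEET and DMSO when the pair was fitted as a block. The test was edgeR's quasi-likelihood test on the counts, with p values adjusted by the Benjamini-Hochberg method over all 15496 genes that passed the filter and a threshold of 0.05. Of the 10 members, 6 passed the filter and 4 (cyp-35A1, cyp-35A3, cyp-35A4 and cyp-35B3) did not, and 0 of the 6 were called. Over all genes tested, 0.0839% were called, 13 genes, all higher in DEET in this fit; some other fits also called lower genes, 4 of 16 without pair 4 and 8 of 30 without the filter. At an unadjusted p under 0.05 there were cyp-35A5 and cyp-35C1, where 3.39% of all genes tested lay under it. DESeq2 with the block and no filter called 1 member, cyp-35A5, as higher in DEET, along with 0.0752% of all its genes in that direction. The median log2 fold change of the 6 members was 0.04, against 0.00 over all genes tested.

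cyp-35A5 had the highest ratio of the family. Its level was 0.935, 0.777, 0.579 and 0.506 TPM in the DMSO libraries of pairs 1 to 4, and 3.17, 2.04, 1.23 and 5.38 TPM in the DEET libraries. All DEET libraries were above all DMSO libraries, as for 0.297% of all genes tested. Pair 4 held both the lowest DMSO and the highest DEET value. The counts behind these values were 33 to 58 in DMSO and 70 to 358 in DEET. The log2 ratio of CPM, DEET over DMSO within a pair, was 1.74, 1.36, 1.03 and 3.33. The fitted log2 fold change was 2.00 ± 0.36 (SE), a 4.01-fold difference with a 95% interval of 2.19 to 7.32.

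Whether cyp-35A5 was called depended on the analysis. Its fitted log2 fold change ranked 12 among 15496 genes, but its p of 0.00119 ranked 37, and its adjusted p in the blocked edgeR fit was 0.5. Without pair 4 the log2 fold change was smaller, at 1.46, and the adjusted p was 0.0125. That fit called 0.0783% of its genes as higher in DEET. DESeq2 with the block gave a log2 fold change of 1.92 on all genes with a count (adjusted p = 1.5e-06) and 1.91 on the genes of the edgeR filter (adjusted p = 0.0883). Without pair 4 the DESeq2 log2 fold change was 1.43 (adjusted p = 0.0155), and 0.0914% of genes were called higher. The other fits with the block did not call cyp-35A5. In edgeR its adjusted p was 0.9996, 0.622 and 0.647 without pair 1, 2 or 3. It was 0.996 without the filter, 0.583 with the size factors of DESeq2 and 0.0639 without robust estimation. Limma on log2(TPM + 0.1) and log2(TPM + 1) gave 0.575 and 0.765. Without the block, the edgeR log2 fold change was 2.09 with an unadjusted p of 0.00151, and 0 genes passed over the whole table, with 45 at an unadjusted p under 0.05 against 526 with the block.

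cyp-35C1 was the other gene higher in DEET in every pair. Its level was 12.6, 10.1, 7.78 and 17.8 TPM in DMSO and 16.4, 14.4, 11.2 and 47.6 TPM in DEET, pairs 1 to 4 in order. The groups overlapped, because the DMSO library of pair 4 was above the DEET libraries of pairs 1 to 3. Within pairs the log2 ratios were 0.40, 0.50, 0.51 and 1.42, higher in 4 of 4 pairs, as for 4.58% of all genes tested. Pairs 1 to 3 lay close together and pair 4 stood apart. The fitted log2 fold change was 0.75 ± 0.20 (SE), or 1.68-fold with a 95% interval of 1.19 to 2.38, and the adjusted p was 0.9999. Without pair 4 it was 0.48 and passed in edgeR (adjusted p = 0.0356), and 0.47 and did not pass in DESeq2 (adjusted p = 0.124).

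**Figure D2:**
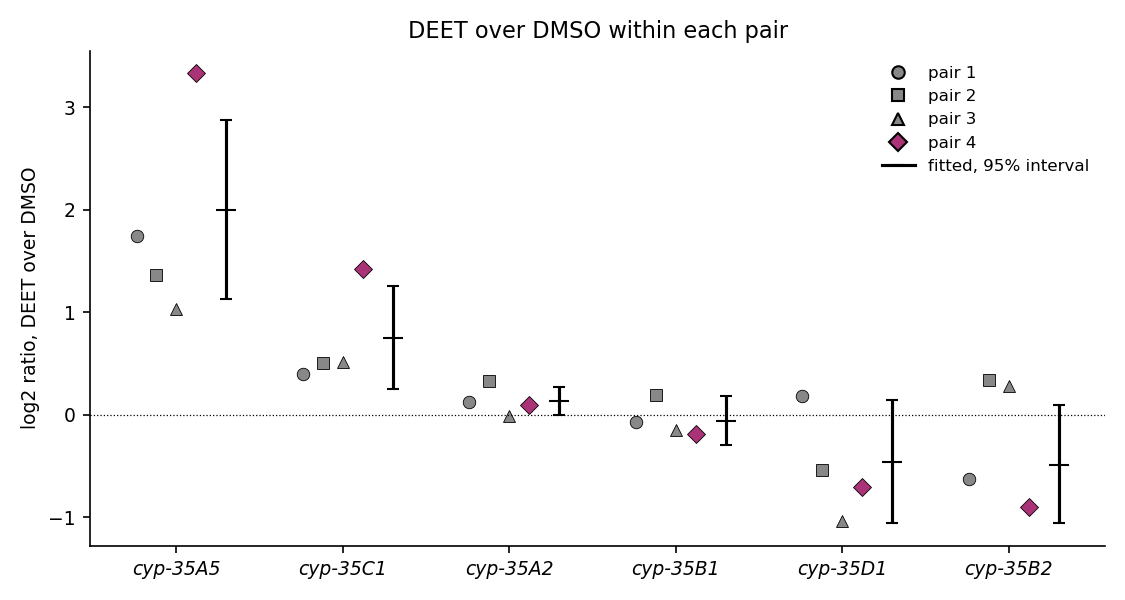
Log2 ratio of DEET over DMSO within each pair (points, log2 CPM with a prior count of 2) for the 6 genes that passed the count filter, with the fitted log2 fold change and its 95% interval at the right of each gene. For cyp-35A5 and cyp-35C1 all 4 pairs lie above 0 and pair 4, at 3.33 and 1.42, is the highest, while cyp-35A2 and cyp-35B1 lie near 0.

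cyp-35A2, the most abundant member in DMSO, stood at nearly the same level in both groups. It was at 14.7, 16.5, 13.9 and 17.5 TPM in DMSO and 15.8, 20.8, 13.9 and 18.5 TPM in DEET. The widest difference was in pair 2, with a log2 ratio of 0.33, and the other 3 ratios lay between -0.01 and 0.12. Its fitted difference was 1.1-fold with a 95% interval of 0.997 to 1.21 (unadjusted p = 0.056 in edgeR; adjusted p = 0.9999). This was the narrowest interval among the 6 genes tested.

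The cyp-35B genes next to cyp-35A5 gave no call. cyp-35B1, the adjacent gene, was at 2.29, 2.13, 1.82 and 3.68 TPM in DMSO and 2.14, 2.46, 1.65 and 3.22 TPM in DEET. It was lower in 3 of 4 pairs, and pair 4 was the highest of both groups. Its fitted difference was 0.959-fold, with a 95% interval of 0.81 to 1.13. cyp-35B2 ranged from 4 to 53 counts in DMSO and from 6 to 31 in DEET, and its pairs disagreed in direction, with log2 ratios of -0.63 and -0.90 in pairs 1 and 4 and 0.34 and 0.28 in pairs 2 and 3. Its fitted difference was 0.714-fold, with a 95% interval of 0.479 to 1.07. cyp-35B3 was at 0 in 5 of 8 libraries and never above 2 counts, where 0 counts in a library allow up to 3 counts, or 0.0596 to 0.0675 CPM.

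cyp-35D1 lay lower in DEET in 3 of 4 pairs and gave no call. Its counts were 34, 17, 23 and 19 in DMSO and 36, 12, 10 and 11 in DEET. The DEET library of pair 1 was as high as its DMSO partner, and the other DEET libraries were below every DMSO library. The fitted difference was 0.727-fold with a 95% interval of 0.479 to 1.1, and the unadjusted p was 0.12 (edgeR). Its neighbour nhr-176 had 7.87 ± 0.744 TPM with DMSO and 7.6 ± 0.16 TPM with DEET (SD, n = 4), and a log2 fold change of -0.05 ± 0.09 (SE).

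Among the remaining cyp-35A genes, too few counts were found to show a moderate difference. cyp-35A3 summed to 22 counts over the 4 DMSO libraries and 28 over the 4 DEET libraries, a CPM ratio of 1.27 with an exact 95% interval of 0.7 to 2.33. cyp-35A4 summed to 17 and 16 counts, a ratio of 0.938 (0.444 to 1.97). These intervals cover counting error only. cyp-35A1 had 6 and 14 counts in the DMSO and DEET libraries of pair 4 and at most 1 count in any other library. A cyp-35D2 pseudogene, named only in the RefSeq gene table (WBcel235) and no member here, had 1 count in each of 2 libraries and 0 in the rest.

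Ratios of members were also compared with each other within pairs. The log2 ratio of cyp-35A5 was above that of its neighbour cyp-35B1 in 4 of 4 pairs, by 1.92 ± 1.11 (SD, n = 4), and above that of cyp-35C1 in 4 of 4 pairs, by 1.16 ± 0.60 (SD, n = 4). That of cyp-35C1 was above that of cyp-35A2 in 4 of 4 pairs, by 0.58 ± 0.53 (SD, n = 4). An exact two-sided sign-flip permutation test over 4 pairs cannot give a p below 0.125, which was reached in these 3 and in 7 more of the 15 comparisons among the 6 genes (adjusted p = 0.188), so none could pass the threshold.

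The summed TPM of the family was 32.0, 30.3, 24.8 and 40.9 in the DMSO libraries of pairs 1 to 4 and 38.9, 40.3, 28.6 and 75.8 in the DEET libraries. The DEET library was higher in each pair, and the groups overlapped. cyp-35C1 made 62.8% of the family's TPM in the DEET library of pair 4, against 31.4% to 43.5% in the other 7 libraries. cyp-35A5 went from 2.27% ± 0.727 of the family's TPM in DMSO to 6.15% ± 1.78 in DEET (SD, n = 4). The intestine markers had mean log2 ratios of 0.09, -0.11, 0.08 and -0.15 in pairs 1 to 4 and summed to 2840 to 5290 TPM in DMSO and 3020 to 4390 TPM in DEET, so in pair 4, where cyp-35A5 and cyp-35C1 had their highest ratios, the marker list had its lowest. The part of tissue make-up in these ratios was not tested.

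**Figure D3:**
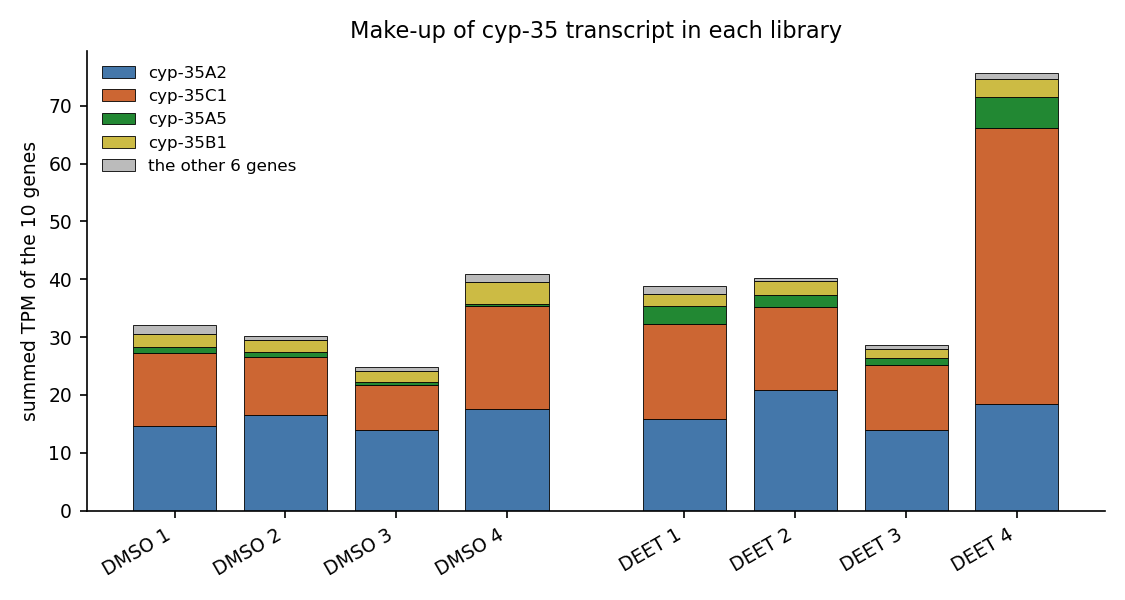
Summed TPM of the 10 cyp-35 genes in each library, split by gene, with DMSO libraries at the left and DEET libraries at the right. Bars start at 0; the DEET library of pair 4, at 75.8 TPM, is the tallest, and its cyp-35C1 segment is 47.6 TPM.

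The members also varied across the 4 batches, apart from treatment. The edgeR test of the 3 batch coefficients together, in the same model, called 5 of the 6 members that passed the filter, and 64.9% of all genes tested, so the members' count is near the background. cyp-35B2 had the lowest adjusted p of the 6, at 6.9e-04, with 53 and 31 counts in batch 1 and 4 and 6 counts in batch 2 (DMSO and DEET). cyp-35B1 followed with 0.00102, and its levels were highest in batch 4 in both groups. cyp-35D1 (adjusted p = 0.0192) was highest in batch 1. cyp-35A5 did not pass (adjusted p = 0.137), and its DMSO libraries differed by less than its DEET libraries did, 0.506 to 0.935 against 1.23 to 5.38 TPM. Without batch 4 the test called 19.5% of genes and 4 members, with cyp-35A5 now among them and cyp-35B1 and cyp-35D1 lost.

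Likeness over the 8 libraries, as Pearson's r of log2 CPM, is given for the 3 members with the most counts as a description; the 2 libraries of a pair share a batch number, and what a batch shared is not stated in the labels. The genes most like cyp-35C1 were ugt-25, a UDP-glucuronosyltransferase that conjugates sugar to foreign compounds (r = 0.958), the tomosyn gene tom-1 (0.958) and D2063.1 (0.944). Of these, ugt-25 is itself among the 13 genes called with DEET (log2 fold change 1.50 ± 0.19 SE, adjusted p = 0.0144). For cyp-35A2 they were F39D8.3, K04G2.9 and the tetraspanin gene tsp-15, with r of 0.955, 0.950 and 0.947. For cyp-35B1 they were K04A8.1, zig-12 and M03E7.1, with r of 0.989, 0.988 and 0.985, and none of these 6 genes was called with DEET. Among the 15 pairings of the 6 tested members, r ran from -0.43 to 0.74. It was 0.74 for cyp-35C1 with cyp-35A5, 0.73 for cyp-35C1 with cyp-35B1 and 0.68 for cyp-35A2 with cyp-35B1, against 0.17 for cyp-35A5 with its neighbour cyp-35B1.

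Genes that serve or control P450 enzymes did not pass in either direction. Of 4 P450 partners tested, 0 were called. emb-8, the NADPH-cytochrome P450 reductase, had 124 ± 9.1 TPM with DMSO and 127 ± 5.54 TPM with DEET (SD, n = 4). The cytochrome b5 gene cytb-5.1 was higher in 4 of 4 pairs, at 189 ± 19.1 and 214 ± 29.3 TPM (SD, n = 4), with a log2 fold change of 0.18 ± 0.04 (SE) and an adjusted p of 0.384. cytb-5.2 and hpo-19 had log2 fold changes of -0.03 ± 0.04 and 0.00 ± 0.04 (SE).

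Of 16 listed regulators, 15 were tested, 0 were called, and their log2 fold changes ran from -0.07 for the nuclear hormone receptor gene nhr-8, which acts in xenobiotic resistance, to 0.22 for ahr-1, the aryl hydrocarbon receptor gene. The median was 0.00. Between those lay the nuclear hormone receptor genes nhr-49, nhr-86, nhr-102, nhr-176 and daf-12, the Mediator subunit gene mdt-15 and the coactivator gene cbp-1. The stress regulators skn-1, wdr-23, pmk-1 and daf-16, the intestinal GATA factor elt-2 and aha-1, the partner of AHR-1, lay there too. nhr-239 did not pass the filter, with 0.11 ± 0.0741 TPM under DMSO and 0.0667 ± 0.0321 TPM under DEET (SD, n = 4).

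The protein-coding genes that flank the members gave no call. Those tested were exc-13 beside cyp-35A2, K09D9.1 and C49G7.7 beside cyp-35A3 and cyp-35A4, dach-1 beside cyp-35B3, sptl-3, a serine palmitoyltransferase subunit gene, beside cyp-35C1, and nhr-176. Their log2 fold changes were -0.12, -0.10, 0.33, -0.10, 0.00 and -0.05. sptl-3, 247 bases from cyp-35C1, had 48.9 ± 4.86 TPM with DMSO and 48.9 ± 4.8 TPM with DEET (SD, n = 4). srx-63, C03G6.6 and F14H3.14 were at 0 in all libraries, and K09D9.14 and oac-3 did not pass the filter.

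For the families cyp-14A and cyp-34A, which hold called genes, values are given side by side. The difference between families was not tested. The blocked fit called 0.0839% of all genes tested, all higher in DEET. Of 5 cyp-14A genes tested, 2 were higher in DEET with the block and 0 lower, with a median log2 fold change of 0.22, and of 6 cyp-34A genes 1 was higher and 0 lower, with a median of 0.02. In DEET, cyp-14A2, cyp-14A3 and cyp-34A10 reached 9.02 ± 4.61, 6.61 ± 4.98 and 4.64 ± 4.83 TPM (SD, n = 4), against 1.42 ± 0.311, 0.0642 ± 0.0347 and 0.0797 ± 0.0725 TPM in DMSO. The 13 tested genes of the cyp-33 family gave 0 calls. Over all 56 other P450 genes tested, 3 were higher and 0 lower, and 26 had a log2 fold change above 0. Among conjugation and export genes, 2 of 60 UDP-glucuronosyltransferases were higher (ugt-25 and ugt-33), with 0 calls among 40 glutathione S-transferases and 14 P-glycoprotein transporters. cyp-35C1 and cyp-35A2 stood at 22.4 ± 16.9 and 17.3 ± 3.03 TPM in DEET (SD, n = 4).

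**Figure D4:**
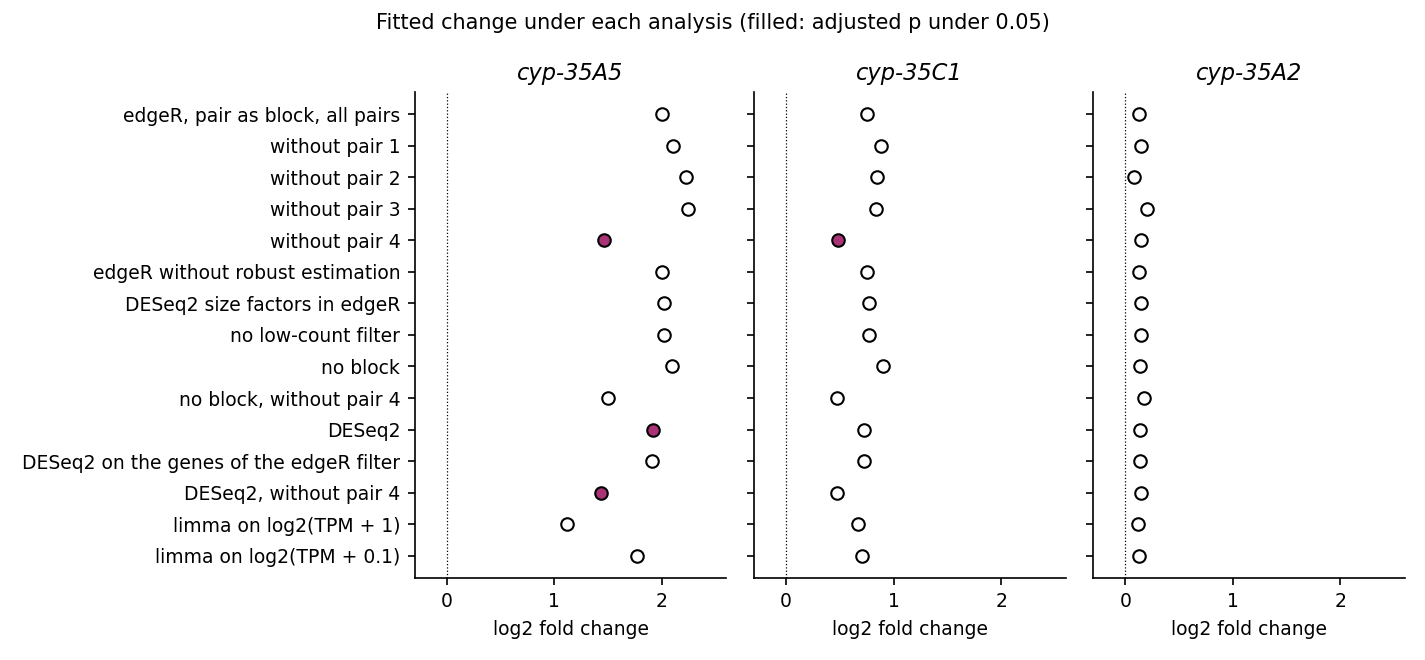
Fitted log2 fold change, DEET over DMSO, of cyp-35A5, cyp-35C1 and cyp-35A2 under 15 analyses (rows), filled where the adjusted p over all genes was under 0.05. cyp-35A5 lies between 1.12 and 2.24 and is filled in 3 analyses, cyp-35C1 between 0.47 and 0.90 and filled in 1, and cyp-35A2 between 0.08 and 0.20 and filled in none.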

How the data were processed

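Per the labels' protocols, whole-worm polyadenylated RNA went through the Kapa mRNA HyperPrep kit and was read in pairs (NextSeq). The submitters' processing notes name Salmon, DESeq2 and the WBcel235 build; for their versions, roles and strand use the label text is silent. The authors deposited whole-number counts per gene, not normalized, and TPM, scaled to a fixed total per library by the authors. Identifiers are sequence names: 46182 of 46244 matched 1 gene of the Ensembl WBcel235 annotation, 3 matched several and 59 none.

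Counts were tested in R 4.3.3 with edgeR 4.0.16 (quasi-likelihood test, TMM scaling, filter by group, robust estimation, two-sided), with treatment and pair as terms, on all 15496 genes past the filter. An SE is the log2 fold change divided by the square root of F, and 95% intervals follow from it, so both restate the p. Log2 CPM used a prior count of 2. Same-numbered libraries deviated together (r of 0.429, 0.706, 0.558 and 0.896 in pairs 1 to 4), so the numbers, marked as batches in the labels, pair the samples. Within each treatment group, no library repeated another (chi-square per gene at least 14.3). The script was tested on simulated data. There, batch shifts were drawn alike for all batches, and treatment ratios were set alike in all pairs. Alternatives were DESeq2 1.42.0, limma 3.58.1 on log2(TPM + 1) and log2(TPM + 0.1), no filter, other size factors, no block and each pair left out. Members and gene lists were chosen with earlier results of these data known. Named are all members, called genes of the lists, all partners and regulators, flanking genes, and the 3 genes most like each of the 3 members with the most counts. Reads have no molecular identifiers, so the exact intervals of CPM ratios and the floors cover counting error only. The fitted 95% intervals also carry variation between pairs.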

Additional observations from a re-analysis of the deposited data

Results flagged for a closer look

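In 5 of 26 groups of 4 values examined for the members, the highest value stood far from the other 3. Chance gives about 1 group in 20 for continuous values, a rate that does not hold for the groups of cyp-35A1 and cyp-35B3 below, where the other 3 libraries were at 0, and the cyp-35C1 values below share 1 library. The log2 ratio of cyp-35C1 in pair 4 was 1.42, and its level in the DEET library of pair 4 was 47.6 TPM. cyp-35D1 was at 0.613 TPM in the DEET library of pair 1. cyp-35A1 was at 0.238 TPM in the DEET library of pair 4, with all other DEET libraries at 0. cyp-35B3 was at 0.0349 TPM, from 2 counts, in the DMSO library of pair 4, with the other DMSO libraries at 0.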

How the results depend on the processing

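The count of members called between DEET and DMSO, 0 with the block and all pairs, was 0 to 2 with 1 pair left out (2 without pair 4), 1 with DESeq2 and 1 with DESeq2 without pair 4. Over all genes the count of 13 was 11 to 16 with 1 pair left out. It was 20 with DESeq2, on all genes, on the genes of the edgeR filter or without pair 4, 30 without the filter and 7 on log2(TPM + 1). Genes called lower numbered 0 in the blocked edgeR fit, 1 without pair 1, 4 without pair 4, 8 without the filter, 2 with DESeq2 (all or filtered genes) and 5 with DESeq2 without pair 4, and 0 in the other fits. The count of genes called in either direction was 0 with no replicate block. With neither the block nor pair 4 it was 4, all higher in DEET. The causes were not tested. The fits that combine DESeq2 or no block with a left-out pair 4, DESeq2 on filtered genes, and edgeR without robust estimation were chosen after seeing the data. Directions of the 6 members held in all 14 alternatives, apart from cyp-35B1, at 0.01 without the block and pair 4. Without the block no member was called. The batch test called 4 or 5 members in each alternative, though not always the same ones. Without the filter 10 members were tested, and cyp-35A1 was called while cyp-35C1 was not. With DESeq2 it called 4 of 8 members. Over all genes the batch test called 2992 to 9884 with 1 pair left out, 2992 being without pair 4. Depth limits cyp-35A1, cyp-35A3, cyp-35A4 and cyp-35B3.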
